A study of Mus musculus with 32 samples.

Results

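Gzma, Gzmb, Prf1, Nkg7, Klrk1, Klrb1c, Ncr1, Ifng, Eomes and Fasl are 10 genes through which killer lymphocytes recognise and destroy target cells, and they were read out by bulk RNA sequencing of KPC36 tumours. They were taken by symbol from the 55103 rows of the deposited table of gene counts. Earlier results of these data were known when the genes were chosen. KPC36 is a mouse line derived from pancreatic cancer, and the labels used here give neither its genotype nor the host mice, the implantation site or the radiation dose. The 32 libraries fell into 4 groups of 8 by the treatment label, namely tumours given carbon ions (carbon_treated), the untreated tumours of that arm (carbon_ctrl), tumours given photons (photon_treated) and the untreated tumours of the photon arm (photon_ctrl). Tumours were taken 4 and 7 days after treatment, but which library belongs to which day is not stated in the labels. Photons are the beam of conventional radiotherapy and carbon ions are a heavier, more densely ionising beam. The comparisons ask whether either beam was followed by a change in the transcripts of cytotoxic lymphocytes, and whether the beams differed in this.

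Natural killer (NK) cells and cytotoxic T cells kill by releasing granules. Perforin from these granules opens the membrane of the target, granzymes enter and cleave proteins that start cell death, and Fas ligand on the cell surface is a separate route to the same end. NK cells decide on a target by weighing activating receptors such as NKG2D and NKp46 against inhibitory ones, and on activation they secrete interferon gamma, which acts on tumour and myeloid cells.

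The label calls the cell type malignant, whereas each library held RNA of a whole piece of tumour. The summed level of 6 epithelial markers (Krt8, Krt18, Krt19, Krt7, Epcam and Cdh1) lay between 2388 and 5351 CPM (the usual count scaled by library size), and the leukocyte marker Ptprc between 36.2 and 100.1 CPM. The 5 B and plasma cell markers summed to at most 1.49 CPM in any library, and the 6 skeletal muscle markers ranged from 8.18 to 7232 CPM. The 10 genes studied here summed to between 2.02 and 11.7 CPM. Library totals ran from 13891863 to 71645903 estimated counts, so that 3 counts, the upper limit that a count of 0 allows, correspond to 0.0458 to 0.196 CPM. The deposited estimates may have been rescaled after counting, which is not stated, so counts given here are on the deposited scale, and limits and counting errors computed from them hold only if that scale is close to reads. Library titles begin with D or M, the meaning of which is not stated. D titles occur in 4 carbon-ion controls and 3 carbon-ion tumours and in no photon library, so carbon-ion estimates that differ between the letters are given within them as well. In such bulk samples, fewer cells of a type and less RNA per cell cannot be told apart. That the replicates are separate animals is not stated, and p-values then measure only the spread between these samples.

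The promoters of these genes were examined for short motifs of factors known from killer lymphocytes, with the 250 bases before each start in the RefSeq table of assembly GRCm38.p6, where all 10 were found. The RUNX motif TGTGGTT, searched on both strands, lay in 4 of the 10 promoters and in 4.40% of all 32851 promoters of that length. These 4 are shown since Runx3 is a known regulator of cytotoxic lymphocytes. They are written 5′ to 3′ on the strand of the gene, with the RUNX match in capitals. The windows are chr13:113100982-113101231 on the minus strand for Gzma, chr14:56262335-56262584 on the minus strand for Gzmb, chr6:129623865-129624114 on the minus strand for Klrk1 and chr7:4337465-4337714 on the plus strand for Ncr1.
Gzma: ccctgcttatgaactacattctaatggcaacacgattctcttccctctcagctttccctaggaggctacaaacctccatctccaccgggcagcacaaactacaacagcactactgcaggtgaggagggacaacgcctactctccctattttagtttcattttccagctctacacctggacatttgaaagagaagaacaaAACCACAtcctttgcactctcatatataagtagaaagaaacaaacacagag
Gzmb: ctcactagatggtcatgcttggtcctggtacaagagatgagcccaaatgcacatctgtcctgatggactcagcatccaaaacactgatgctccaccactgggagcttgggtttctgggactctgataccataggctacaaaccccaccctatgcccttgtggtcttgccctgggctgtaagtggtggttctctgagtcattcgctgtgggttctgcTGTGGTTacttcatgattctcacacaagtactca
Klrk1: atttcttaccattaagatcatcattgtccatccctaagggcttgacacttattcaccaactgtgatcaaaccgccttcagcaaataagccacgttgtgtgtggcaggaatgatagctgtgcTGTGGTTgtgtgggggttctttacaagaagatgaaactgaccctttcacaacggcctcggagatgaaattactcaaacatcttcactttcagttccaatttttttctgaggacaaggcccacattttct
Ncr1: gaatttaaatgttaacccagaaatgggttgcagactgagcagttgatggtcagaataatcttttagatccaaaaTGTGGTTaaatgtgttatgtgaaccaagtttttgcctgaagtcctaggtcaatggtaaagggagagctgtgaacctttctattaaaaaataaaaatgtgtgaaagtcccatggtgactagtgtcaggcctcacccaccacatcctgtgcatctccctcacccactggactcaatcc
The match began 51 bases before the RefSeq start in Gzma, on the opposite strand, 34 bases before it in Gzmb, 129 in Klrk1 and 176 in Ncr1. The gene positions given below are from GENCODE, and their starts differ from the RefSeq starts for some genes, among them Gzmb. Gzmb also held an AP-1 match (TGANTCA) beginning 58 bases before its start, and this motif was present in 6.75% of all promoters. The ETS motif AGGAAGT occurred in Prf1 and Fasl and in 7.69% of promoters. The T-box motif GGTGTGA, the class of site that Eomes binds, occurred in Nkg7 alone among the 10 and in 3.33% of promoters. The interferon gamma-activated motif TTCNNNGAA occurred in Nkg7 and Ifng and in 7.02% of promoters, and the cyclic AMP response motif TGACGTCA in none of the 10 and in 1.55% of promoters. These matches describe letters in a window and not occupied sites.

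Expression of the 10 genes was low in every group. Per kilobase of exon, which allows levels of different genes to be compared, the median level over the 32 tumours was highest for Gzmb with 0.890 CPM per kb, followed by Prf1 with 0.438, Nkg7 with 0.322, Gzma with 0.221, Klrb1c with 0.212, Klrk1 with 0.202, Ncr1 with 0.156, Eomes with 0.0923 and Fasl with 0.0442 CPM per kb. Ifng had a median of 0. The ranges of genes next to each other in a group's order of medians overlapped in each of the 4 groups. Within tumours, Gzmb exceeded Prf1 in 7 of 8 carbon-ion controls, 7 of 8 tumours after carbon ions, 8 of 8 photon controls and 6 of 8 tumours after photons. Only 8 of the 10 genes passed the filter on low counts, which Ifng and Fasl did not.

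**Figure D1:**
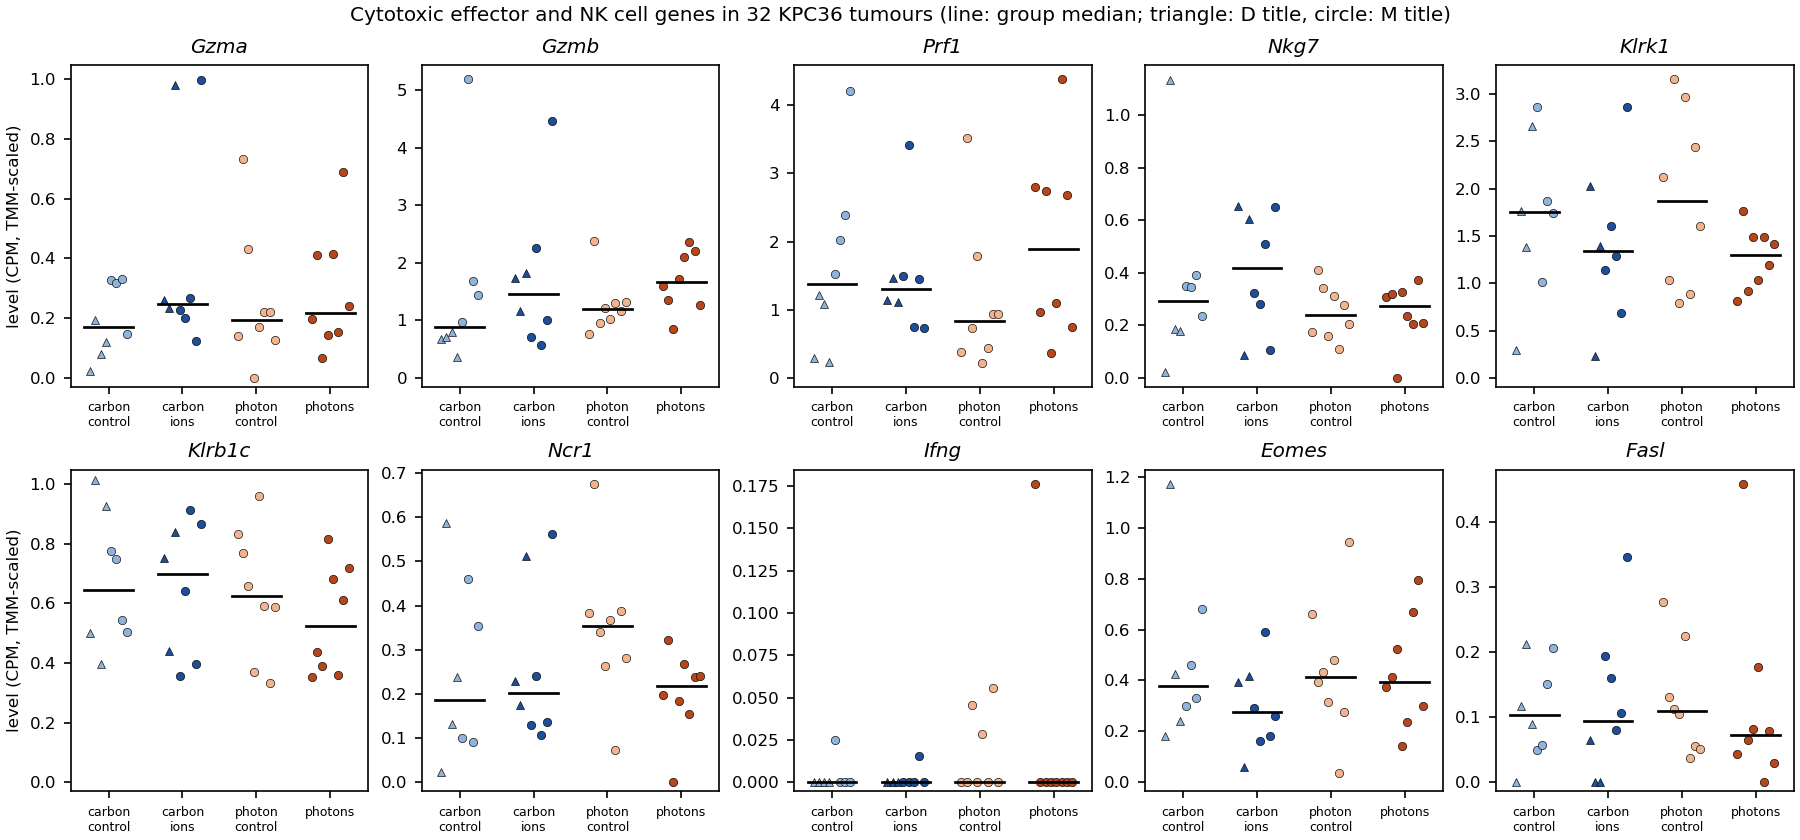
Level of each of the 10 genes (vertical axis, CPM) in the 32 tumours by treatment group (horizontal axis). Each point is 1 tumour, the line is the group median, triangles mark D titles and circles M titles. The 4 groups overlap in all 10 panels, and Ifng is at 0 in 26 of 32 tumours.

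Gzmb (chr14:56258838-56262260, minus strand) encodes granzyme B, the protease that cleaves caspases and Bid in target cells. It ranged from 0.359 to 5.19 CPM in the carbon-ion controls with a median of 0.887, and from 0.564 to 4.46 CPM after carbon ions with a median of 1.45. The photon controls ranged from 0.765 to 2.38 CPM with a median of 1.19, and the photon tumours from 0.849 to 2.37 CPM with a median of 1.66. After photons 7 of 8 tumours lay above the control median and after carbon ions 6 of 8, with overlapping ranges in both arms. Group means were 1.48 ± 1.56, 1.72 ± 1.25, 1.26 ± 0.488 and 1.68 ± 0.522 CPM (SD, n = 8 each) in that order. The spread of the carbon-ion controls was the widest of the 4 groups and included replicate 6 at 5.19 CPM, where the next tumour had 1.69 CPM.

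Prf1 (chr10:61297833-61304680, plus strand) encodes perforin, which makes the pore. Its lowest, median and highest values were 0.239, 1.37 and 4.20 CPM among the untreated tumours of the carbon-ion arm and 0.736, 1.298 and 3.42 CPM after carbon ions. In the photon controls they were 0.226, 0.834 and 3.52 CPM, and after photons 0.367, 1.89 and 4.38 CPM. The photon tumours had the highest median of the 4 groups, with 6 of 8 above the median of their controls, and the ranges nearly coincided.

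Gzma (chr13:113093825-113100981, minus strand) encodes granzyme A, a tryptase of the same granules, and rested on a median of 7.5 counts per library. It ran from 0.0227 to 0.332 CPM in the carbon-ion controls around a median of 0.172, and from 0.122 to 0.996 CPM after carbon ions around a median of 0.248. Photon controls ran from 0 to 0.731 CPM (median 0.196) and photon tumours from 0.0653 to 0.690 CPM (median 0.219). After carbon ions 7 of 8 tumours exceeded the control median, with overlapping ranges.

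Nkg7 (chr7:43437073-43438249, plus strand) encodes a granule membrane protein needed for degranulation. Its medians were 0.291 CPM in the carbon-ion controls (range 0.0227 to 1.13), 0.417 after carbon ions (0.0878 to 0.655), 0.241 in the photon controls (0.111 to 0.412) and 0.272 after photons (0 to 0.371). All 4 ranges overlapped.

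Klrk1 (chr6:129610323-129623864, minus strand) encodes NKG2D, the activating receptor for stress ligands on tumour cells. In the photon controls it ran from 0.792 to 3.16 CPM with a median of 1.86, and in the photon tumours from 0.814 to 1.77 CPM with a median of 1.302. All 8 photon tumours lay below the control median, although within the range of the controls. Carbon-ion controls ran from 0.295 to 2.86 CPM (median 1.75) and carbon-ion tumours from 0.234 to 2.86 CPM (median 1.34), with 6 of 8 below the control median.

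Ncr1 (chr7:4337724-4345164, plus strand) encodes NKp46, the receptor most closely restricted to NK cells and related innate lymphoid cells. Its median was 0.354 CPM in the photon controls (range 0.0741 to 0.675) and 0.218 CPM in the photon tumours (0 to 0.321), again with all 8 photon tumours below the control median. The carbon-ion arm had medians of 0.186 CPM in controls (0.0227 to 0.586) and 0.202 CPM after irradiation (0.107 to 0.563), with 4 of 8 above the control median.

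Klrb1c (chr6:128778485-128789215, minus strand) encodes NK1.1, a C-type lectin receptor used to identify mouse NK cells. Its medians were 0.646, 0.698, 0.625 and 0.523 CPM in carbon-ion controls, carbon-ion tumours, photon controls and photon tumours, and all libraries lay between 0.333 and 1.02 CPM. Of its 50-base stretches, 17% also occur in other genes (Gm44511, Klrb1-ps1, Klrb1a and Klrb1b), so that its reads may be divided among these.

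Eomes (chr9:118478212-118486132, plus strand) encodes a T-box factor required for mature NK cells and for cytotoxic T cell programmes. Its medians were 0.378 CPM in carbon-ion controls (range 0.182 to 1.17), 0.276 after carbon ions (0.0585 to 0.591), 0.412 in photon controls (0.0370 to 0.944) and 0.393 after photons (0.143 to 0.796). An antisense gene, Gm33460, overlaps it, and how the counting used strand is not stated.

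Fasl (chr1:161780689-161788495, minus strand), the gene of Fas ligand, amounted to 131 counts in all 32 libraries and was at 0 in 4 of them. Its medians lay between 0.0724 and 0.109 CPM in the 4 groups. Ifng (chr10:118441046-118445892, plus strand), the gene of interferon gamma, had 14 counts in total. It was at 0 in 26 libraries, and the counts were 1 in the carbon-ion controls, 1 after carbon ions, 4 in the photon controls and 8, all in 1 tumour, after photons. Gm49751 overlaps Ifng and shares 19.9% of its 50-base stretches. In the edgeR fit without the filter on low counts neither gene passed the threshold in any of the 5 comparisons. The estimate for Ifng between the irradiated groups was -2.13 (95% interval -4.12 to -0.14, unadjusted p = 0.0362, edgeR adjusted p = 0.264), and it rests on the 1 photon tumour with 8 counts. The 9 other tests of both genes had an unadjusted p of 0.163 or more.

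The comparisons were made with edgeR's quasi-likelihood test, with Benjamini-Hochberg adjustment over all 20474 genes tested and a threshold of 0.05 on the adjusted p. After carbon ions 0 of the 8 tested genes were called, and the share called among all genes was 0.0%. After photons 0 of 8 were called, against 3.81% of all genes. The carbon-ion effect minus the photon effect was called for 0 of 8 and for 0.0781% of all genes. Between the controls of both arms 0 of 8 were called, against 9.14%, and between the irradiated groups 0 of 8, against 5.08%. Without adjustment, p was under 0.05 in 0 of these 40 tests, against 5.75%, 21.5%, 13%, 23.1% and 25.2% of all genes in the same order, and DESeq2 made 0 calls among them. The median standard error of the photon effect was 0.45 over the 8 genes and 0.18 over all genes tested. A change of the same size was thus less likely to be called among the 8 genes. These counts therefore do not show that the 8 genes were unchanged.

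**Figure D2:**
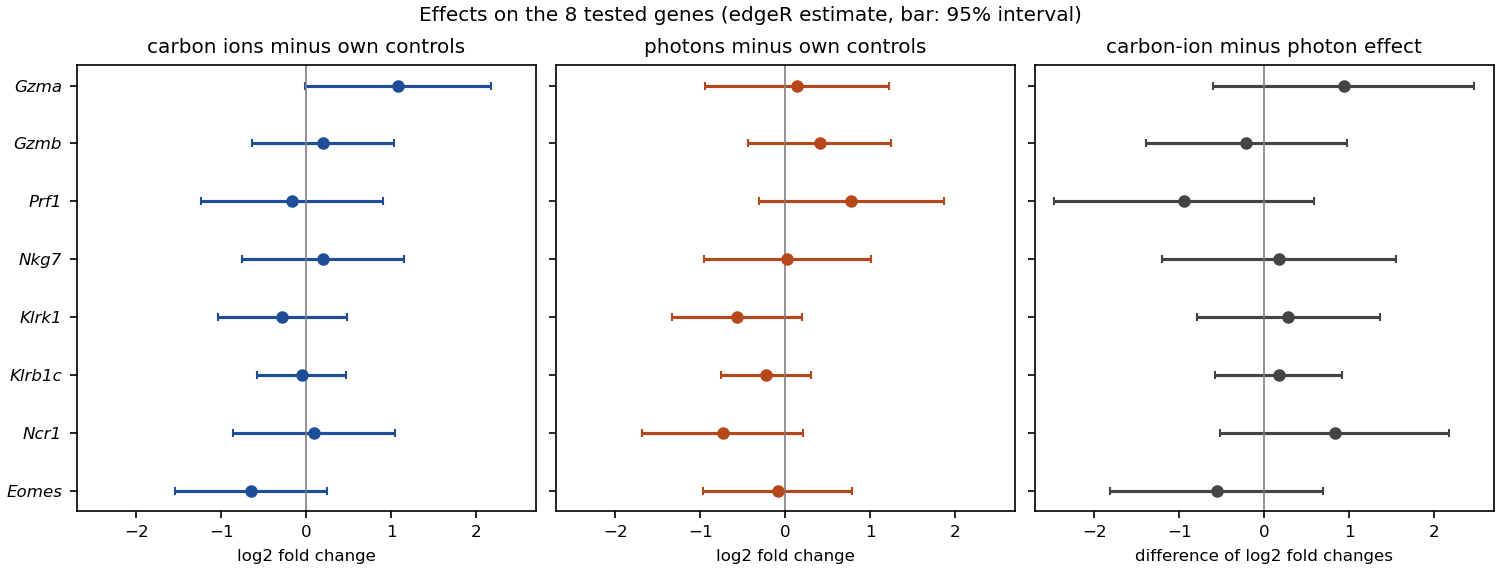
Log2 fold change of the 8 tested genes (horizontal axis) for carbon ions against their controls, photons against their controls, and the difference of these effects. Points are edgeR estimates and bars 95% intervals. Every interval includes 0, and the interval of Gzma after carbon ions ends closest to it.

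After carbon ions the estimate for Gzma was a log2 fold change of 1.07 (standard error 0.54, unadjusted p = 0.0540, edgeR adjusted p = 0.877), with a 95% interval from -0.02 to 2.17. The other estimates in that arm were 0.20 for Gzmb, 0.20 for Nkg7, 0.09 for Ncr1, -0.06 for Klrb1c, -0.17 for Prf1, -0.28 for Klrk1 and -0.65 for Eomes. Their median over the 8 genes was 0.02, beside 0.01 over all genes tested. With 4 estimates above 0 and 4 below, the genes had no common direction. On leaving out 1 library the carbon-ion estimate ran from 0.72 to 1.24 for Gzma, from -0.50 to -0.12 for Klrk1 and from -0.88 to -0.34 for Eomes.

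After photons the 95% interval of each of the 8 genes included 0. Prf1 had an estimate of 0.78 (standard error 0.53, edgeR adjusted p = 0.417) and Gzmb of 0.41, while Ncr1 had -0.74 (standard error 0.47, edgeR adjusted p = 0.371), Klrk1 -0.57 and Klrb1c -0.23. Gzma, Nkg7 and Eomes lay between -0.09 and 0.14. As fold changes, the 95% interval of Prf1 ran from 0.806 to 3.64 and that of Ncr1 from 0.311 to 1.16. A rise of Prf1 and a fall of Ncr1 by a factor of 3 were thus not excluded at this spread. The median over the 8 genes was -0.03, and over all genes it was -0.0006. The value of Prf1 rested in part on photon control replicate 2, without which it was 1.34 (edgeR adjusted p = 0.108), and on photon irradiated replicate 6, without which it was 0.51.

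Carbon-ion minus photon effects were 0.93 for Gzma, 0.83 for Ncr1, 0.28 for Klrk1, 0.17 each for Nkg7 and Klrb1c, -0.21 for Gzmb, -0.56 for Eomes and -0.94 for Prf1. The smallest edgeR adjusted p among them was 0.592, for Prf1, with a 95% interval of -2.47 to 0.58. On leaving out 1 library the value of Prf1 ran from -1.51 (without photon control replicate 2) to -0.56 (without carbon-ion control replicate 8), and it was -1.44 among M-titled libraries. That of Gzma was 0.47 without photon control replicate 2 and 0.16 among M-titled libraries. Between the controls of both arms the estimates ran from -0.54 for Ncr1 to 0.51 for Prf1, and between the irradiated groups from -0.51 for Eomes to 0.61 for Nkg7. On leaving out 1 library the estimate between controls ran from -0.81 to -0.31 for Ncr1. That for Prf1 ran from 0.15 (without carbon-ion control replicate 8) to 1.08 (without photon control replicate 2).

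The carbon-ion estimates of Gzmb and Prf1 had opposite signs within the title letters, and the difference between letters was not tested. Among the carbon-ion controls, Gzmb lay between 0.359 and 0.796 CPM in the 4 D-titled tumours and between 0.978 and 5.19 CPM in the 4 M-titled ones, and Prf1 between 0.239 and 1.21 against 1.53 and 4.20 CPM, without overlap for either gene. Within D titles the carbon-ion effect on Gzmb was 1.31 and within M titles -0.38, against 0.20 over both. For Prf1 it was 0.82 within D titles and -0.67 within M titles. For Nkg7 it was 0.31 and 0.14, against 0.20 over both. Gzma had an effect of 0.30 and Ncr1 of -0.16 within M titles, and neither passed the count filter within D titles. None of these values passed the threshold.

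The genes also varied together between tumours of the same group. Log2 CPM was centred on the group mean, and 28 pairs of the 8 tested genes were correlated over 32 tumours with 100000 permutations within groups. By Spearman's rho 8 pairs passed an adjusted p of 0.05 and 7 of these were positive; by Pearson's r 14 pairs passed. The median rho over the 28 pairs was 0.33. The counts behind Gzma, Nkg7, Ncr1 and Eomes were low, which limits the precision of their correlations.

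Gzma and Nkg7 had the highest rho, 0.69 (permutation p = 3e-05, adjusted p = 0.00084), with a Pearson r of 0.65 (permutation p = 2e-05, adjusted p = 0.00056). Without the 2 tumours farthest from the median of Gzma, r was 0.67. Gzma also followed Ncr1, with a rho of 0.59 (permutation p = 0.00077, adjusted p = 0.0108) and an r of 0.57 (permutation p = 0.00113, adjusted p = 0.00791), which was 0.58 without the 2 farthest tumours. Nkg7 followed Ncr1 with a rho of 0.54 (permutation p = 0.00237, adjusted p = 0.0208) and an r of 0.73 (permutation p = 8e-05, adjusted p = 0.00112), falling to 0.56 without the 2 farthest. Each of these pairs had a positive rho in 4 of 4 groups.

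Gzmb and Prf1, the classical partners in granule killing, had a rho of 0.48 (permutation p = 0.00622, adjusted p = 0.0290) and an r of 0.44 (permutation p = 0.0152, adjusted p = 0.0378), or 0.58 without the 2 farthest tumours, positive in 3 of 4 groups. The exception in direction was Prf1 with Klrb1c, which had a rho of -0.53 (permutation p = 0.00311, adjusted p = 0.0208) and an r of -0.44 (permutation p = 0.0160, adjusted p = 0.0378). It was negative in 4 of 4 groups, and r was -0.34 without the 2 farthest tumours. Among the M-titled libraries alone, 2 pairs passed, Gzma with Nkg7 (rho 0.72) and Prf1 with Klrb1c (rho -0.66), and Gzmb with Prf1 had a rho of 0.25.

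**Figure D3:**
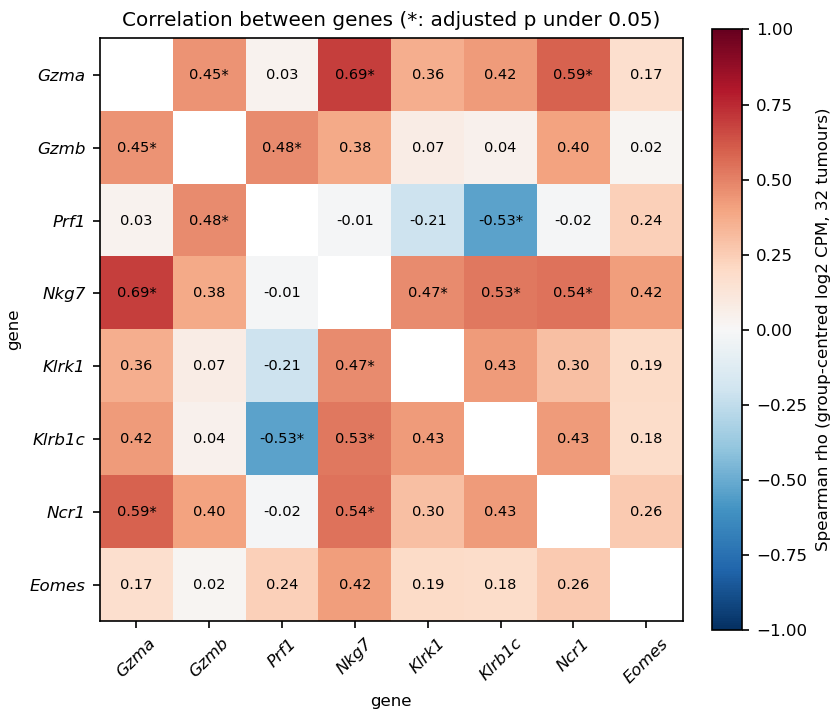
Spearman's rho between the 8 tested genes over 32 tumours, from log2 CPM centred on the group mean, with both axes listing the genes and colour giving rho. Stars mark an adjusted p under 0.05. Gzma, Nkg7 and Ncr1 form the block with the highest values, 24 of the 28 pairs have a rho above 0, and Prf1 with Klrb1c is the negative pair among those with a star.

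The correlation of these genes with the leukocyte marker was graded, and differences between the genes were not tested. Given as a description over the 32 tumours, in which all values share the library, Ptprc had a rho of 0.61 with Klrb1c, 0.60 with Nkg7, 0.60 with Klrk1, 0.51 with Gzma, 0.32 with Ncr1, 0.30 with Eomes, 0.10 with Gzmb and -0.34 with Prf1. Cd3e, a subunit of the T cell receptor complex, had a rho of 0.63 with Nkg7, 0.61 with Klrk1, 0.58 with Klrb1c, 0.38 with Eomes, 0.34 with Ncr1, 0.34 with Gzma, -0.06 with Gzmb and -0.31 with Prf1. Of the 8 tested genes, Gzmb and Prf1 had the lowest rho with both markers. Cd8a, the co-receptor of cytotoxic T cells, had another order, with a rho of 0.42 with Prf1, 0.27 with Gzmb, 0.23 with Eomes, 0.08 with Gzma, 0.08 with Nkg7, 0.06 with Ncr1, -0.09 with Klrk1 and -0.22 with Klrb1c. Over the 13 tested T cell markers the median rho was 0.46 with Klrk1, 0.46 with Klrb1c, 0.39 with Nkg7, 0.26 with Eomes, 0.23 with Gzma and 0.23 with Ncr1. It was -0.06 with Gzmb (range -0.26 to 0.27) and -0.23 with Prf1 (range -0.44 to 0.42).

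Among 13380 other genes, those most like Gzmb by rho over the 32 tumours were Gzmc (0.65), which encodes another granzyme of the same chromosomal cluster, Fndc4 (0.60), Spock3 (0.59), Ssbp2 (0.56) and Prtg (0.54). Those most like Ncr1 were Aoah (0.68), Clec12a (0.65), Clec4a1 (0.65), Reck (0.64) and Tgm1 (0.63). Aoah, Clec12a and Clec4a1 are known from myeloid cells.

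The other granzymes and granule proteins were taken from a list of 17, of which 15 were tested. Several granzymes of the chromosome 14 cluster exceeded Gzmb by far. They are given here although their values had been seen when they were chosen, except Gzme and Gzmc, which the naming rules brought in. Per kilobase the median over 32 tumours was 18.4 CPM per kb for Gzme, 10.1 for Gzmd and 9.41 for Gzmc, that is 20.7-, 11.3- and 10.6-fold the level of Gzmb, and each exceeded Gzmb in 32 of 32 tumours. Gzmf had 1.75 and Gzmg 0.767 CPM per kb. Gzmm, on chromosome 10, had 0.285 CPM per kb and Gzmk, which marks a subset of T cells, a median of 0. Gzmc to Gzmg are closely related in sequence: 20.6% of the 50-base stretches of Gzme, 21.9% of Gzmd and 4.14% of Gzmc occur in other granzymes, against 0.0% of Gzmb, so the division of reads among the former is uncertain.

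Gzme ran from 4.90 to 14.8 CPM in the photon controls with a median of 9.70, and from 8.68 to 42.9 CPM in the photon tumours with a median of 26.5. It was higher than the control median in 7 of 8 photon tumours. It rose after photons by a log2 fold change of 1.44 (standard error 0.38, edgeR adjusted p = 0.0323), and Gzmd had 1.31 (edgeR adjusted p = 0.0557) and Gzmc 0.86 (edgeR adjusted p = 0.0866). The call on Gzme held in 8 of 16 fits that each left out 1 photon-arm tumour, with adjusted p up to 0.0791 without photon control replicate 3. Carbon-ion controls, with a median of 16.9 CPM and a range of 5.90 to 42.5, differed from the photon controls by 0.98 (edgeR adjusted p = 0.104), and after carbon ions the range was 10.02 to 68.4 CPM with a median of 20.7. By title letter the carbon-ion medians of Gzme were 16.9 CPM in controls and 19.5 CPM after irradiation for D titles, and 17.4 and 27.2 CPM for M titles. The carbon-ion minus photon effect on Gzme was -0.93 (edgeR adjusted p = 0.448). Of the macrophage, neutrophil and muscle markers 2 of 8, 3 of 6 and 0 of 6 were called lower after photons, as given further on. Their part in the photon result on Gzme was not tested.

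**Figure D4:**
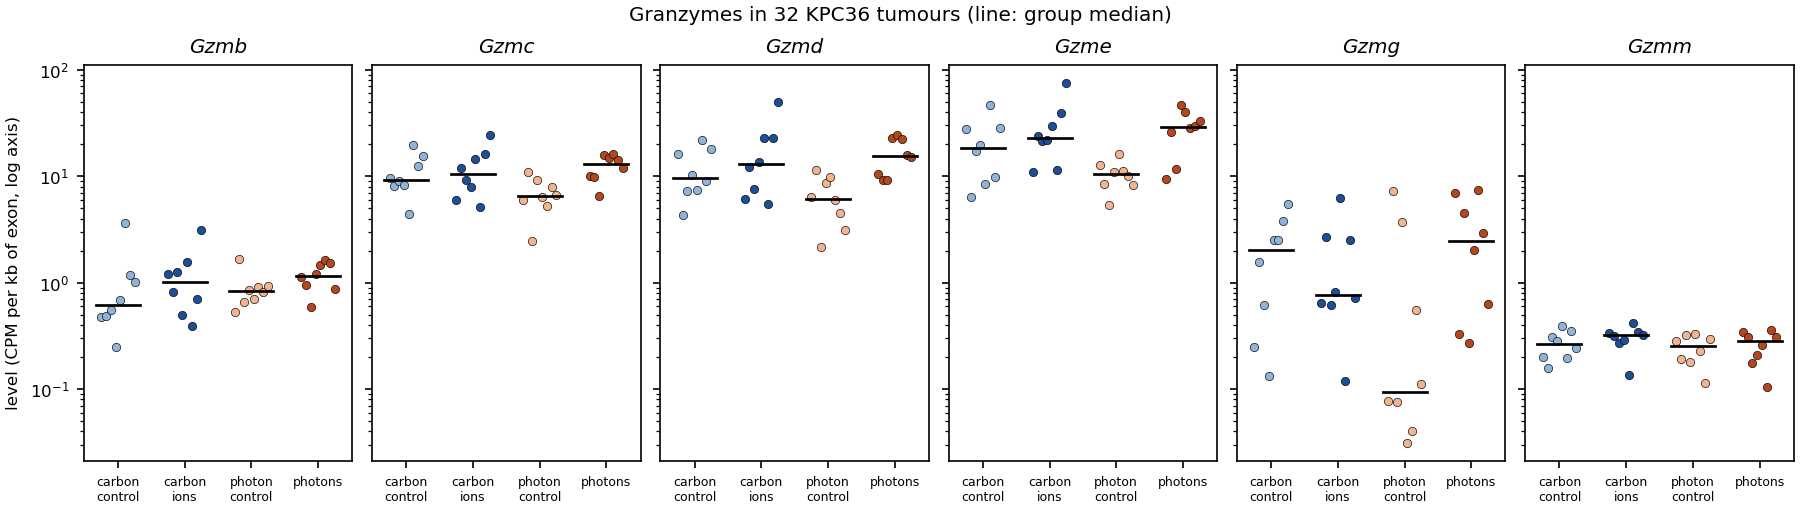
Level per kilobase of exon (vertical axis, log scale, CPM per kb) of 6 granzymes in the 32 tumours by group (horizontal axis). Points are tumours and lines group medians. Gzmc, Gzmd and Gzme lie above Gzmb in all 32 tumours, and their photon controls have the lowest medians of the 4 groups.

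Ctsc encodes cathepsin C, which activates granzymes by trimming them and is also made by myeloid cells. It fell after photons, from 290.2 ± 31.2 to 203.6 ± 30.1 CPM (SD, n = 8 each), by a log2 fold change of -0.51 (edgeR adjusted p = 0.00394). After carbon ions it went from 246.9 ± 23.7 to 274.5 ± 37.5 CPM, an estimate of 0.15, and the difference of the effects was 0.66 (standard error 0.13, edgeR adjusted p = 0.0320). That call was absent without the count filter and among M-titled libraries (edgeR adjusted p = 0.114 in the latter), and it held in 15 of 32 fits that each left out 1 tumour. In the other comparisons Ctsw, cathepsin W of killer cells, was lower in the carbon-ion than in the photon controls by -0.74 (edgeR adjusted p = 0.00875), and Srgn, the proteoglycan that holds granule contents, was higher after carbon ions than after photons by 0.96 (edgeR adjusted p = 0.0279, held in 12 of 16 fits that each left out 1 tumour). Ctsc was also called between the irradiated groups, higher after carbon ions by 0.43, and this held in 16 of 16 such fits. Estimates for macrophage, neutrophil and muscle markers also lay above 0 between the irradiated groups, with 3 of 8, 3 of 6 and 0 of 6 called. Their values are given further on, and their part was not tested. In all, 1 of the 15 tested granule genes rose and 1 fell after photons, where 3.81% of all genes were called. An unadjusted p under 0.05 was found for 8 of the 15, against 21.5% of all genes, and 8 estimates lay above 0 and 7 below, with a median of 0.0002.

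Of 30 other NK receptors and adaptors 21 were tested. After photons 0 of 21 were called by edgeR, 6 had an unadjusted p under 0.05 (21.5% of all genes did), 18 estimates lay below 0 and 3 above, and the median was -0.38, beside -0.0006 over all genes. After carbon ions 0 were called, 3 had an unadjusted p under 0.05 (5.75% of all genes did) and 14 of 21 estimates lay above 0, with a median of 0.06. Between the irradiated groups, where 5.08% of all genes were called, 3 were higher after carbon ions, namely Tyrobp, Fcer1g and Fcgr3, which encode signalling adaptors and an antibody receptor that macrophages share with NK cells, with log2 differences of 0.80, 0.58 and 0.78 (edgeR adjusted p = 0.0206, 0.0287 and 0.0141). These calls held in 15, 11 and 16 of 16 fits without 1 tumour. That on Fcer1g was absent without the filter on low counts and among M-titled libraries (edgeR adjusted p = 0.0535 and 0.0571). In the same comparison 8 of 8 macrophage and monocyte markers had estimates above 0 (3 called, median 0.56), as had 6 of 6 neutrophil markers (3 called, median 0.90) and 6 of 6 muscle markers (0 called, median 3.10), and Ptprc had 0.43. The part of these markers in the differences between the irradiated groups was not tested. Klrc1, the gene of the inhibitory receptor NKG2A, was higher in carbon-ion than in photon controls, at 6.81 ± 2.95 against 2.701 ± 2.74 CPM (SD, n = 8 each), by 1.36 (edgeR adjusted p = 0.0396). Klrc1 has close relatives among which its reads may be divided, and its call held in 5 of 16 fits without 1 tumour, and its adjusted p was 0.182 among M-titled libraries and 0.0540 without the filter on low counts.

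The ligands of these receptors are made by the tumour and its surroundings. Raet1e and Ulbp1, which encode ligands of NKG2D, fell after photons. The Raet1 genes are closely related copies, and how the counting split their reads is not known. Raet1e ran from 6.22 to 9.47 CPM in the photon controls and from 2.87 to 5.66 CPM in the photon tumours, with medians of 7.80 and 3.75. The 2 ranges did not overlap, and the log2 fold change was -0.96 (standard error 0.16, edgeR adjusted p = 0.00205). Ulbp1 ran from 5.66 to 16.6 CPM in the photon controls and from 3.58 to 7.53 CPM in the photon tumours, a log2 fold change of -1.15 (standard error 0.23, edgeR adjusted p = 0.00787).

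In the carbon-ion arm Raet1e had medians of 4.60 CPM in controls (range 3.56 to 6.01) and 4.72 CPM after irradiation (2.75 to 5.79), an estimate of 0.03, and Ulbp1 had an estimate of -0.10. The carbon-ion controls were lower in Raet1e than the photon controls, also without overlap, by -0.78 (edgeR adjusted p = 0.00233), a comparison that shares the photon controls with the photon effect. The carbon-ion minus photon effect was 0.996 for Raet1e (edgeR adjusted p = 0.0582) and 1.05 for Ulbp1 (edgeR adjusted p = 0.163). Both photon calls held in 16 of 16 fits without 1 tumour. Of 13 ligands listed 8 were tested, and 0 rose and 2 fell after photons, where 3.81% of all genes were called. Clec2d and H2-T23, ligands of inhibitory NK receptors, were higher after carbon ions than after photons by 0.54 and 0.55 (edgeR adjusted p = 0.0346 and 0.0263, held in 10 and 11 of 16 fits without 1 tumour). The macrophage, neutrophil and muscle markers and Ptprc lay in the same direction there, with the values given above. The call on Clec2d was absent without the filter on low counts and among M-titled libraries (edgeR adjusted p = 0.0645 and 0.0695).

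**Figure D5:**
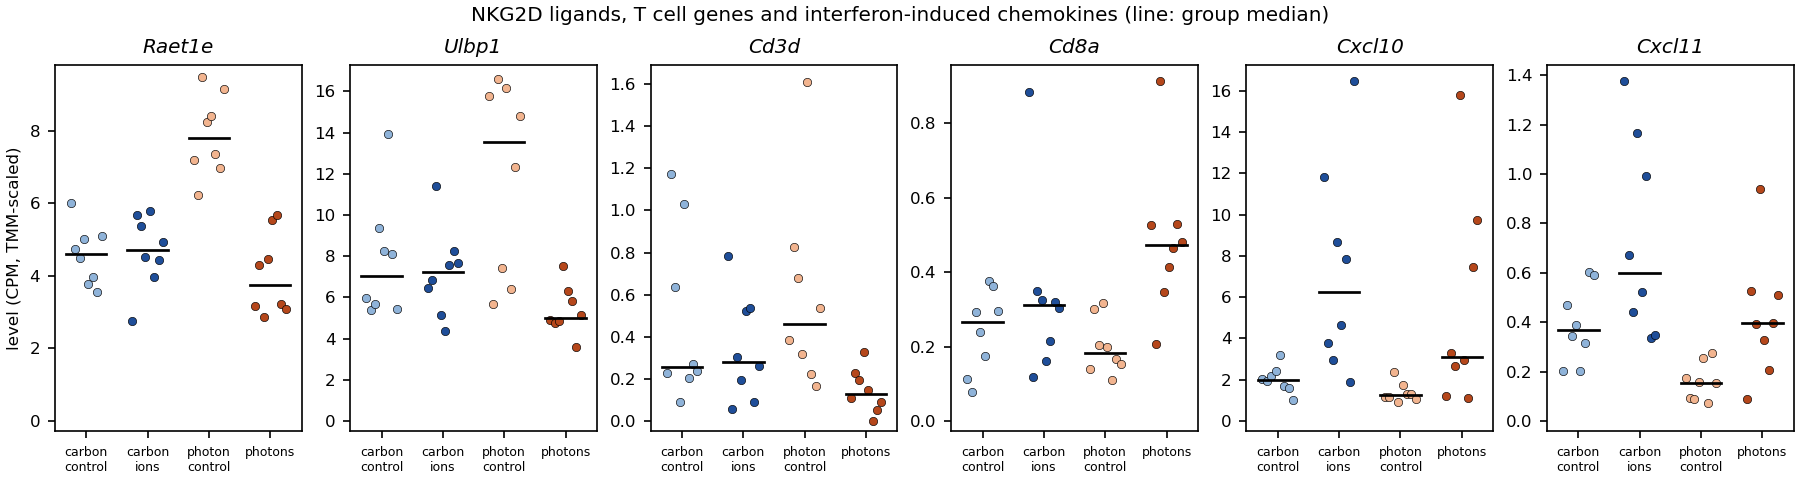
Level (vertical axis, CPM) of the NKG2D ligands Raet1e and Ulbp1, the T cell genes Cd3d and Cd8a and the chemokines Cxcl10 and Cxcl11 in the 32 tumours by group (horizontal axis). Points are tumours and lines group medians. The photon controls lie above the other groups for Raet1e, and Cd3d and Cd8a have opposite differences in the photon arm.

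T cells are the other source of cytotoxic transcripts. Of 14 T cell markers 13 were tested, and after photons 1 rose and 1 fell, where 3.81% of all genes were called. An unadjusted p under 0.05 was found for 7 of 13, against 21.5% of all genes, and 12 of 13 estimates lay below 0 with a median of -0.63. Cd3d, a subunit of the T cell receptor complex, had medians of 0.459 CPM in the photon controls (range 0.166 to 1.61) and 0.129 CPM after photons (0 to 0.326) and fell by -1.99 (edgeR adjusted p = 0.0413). Cd8a, which some dendritic cells also make, had medians of 0.182 CPM (0.111 to 0.317) and 0.472 CPM (0.206 to 0.914) and rose by 1.23 (edgeR adjusted p = 0.0453). Either call held in 5 of 16 fits without 1 tumour, with adjusted p up to 0.112 for Cd3d without photon control replicate 5 and up to 0.0973 for Cd8a without photon control replicate 8. Both calls were absent without the filter on low counts (edgeR adjusted p = 0.0642 for Cd3d and 0.0891 for Cd8a). Cd3e had an estimate of -1.28 (edgeR adjusted p = 0.0932), Cd4 of -0.63 and Trac of -0.41. After carbon ions 0 of 13 were called (0.0% of all genes were), with 0 at an unadjusted p under 0.05 (5.75% of all genes) and a median of 0.05.

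Of 10 transcription factors of cytotoxic lymphocytes 8 were tested, and Tox was the 1 called after photons, where 3.81% of all genes were called. It went from 7.99 ± 1.99 to 14.2 ± 1.74 CPM (SD, n = 8 each), a log2 fold change of 0.83 (edgeR adjusted p = 0.00528), with all 8 photon tumours above the range of their controls. In the carbon-ion arm Tox stood at 15.96 ± 3.04 CPM in controls and 16.1 ± 3.89 CPM after irradiation, and the controls of the arms differed by 0.996 (edgeR adjusted p = 0.000403). The carbon-ion minus photon effect was called for 0 of the 8 factors and for 0.0781% of all genes. Which cells made Tox cannot be told from these bulk samples. Among 9 tested death ligands, receptors and granzyme targets 1 fell after photons (3.81% of all genes were called), Fadd, the adaptor of Fas, by -0.36 (edgeR adjusted p = 0.0321), a call that held in 5 of 16 fits without 1 tumour. Tnf was higher after carbon ions than after photons by 0.65 (edgeR adjusted p = 0.0325, held in 12 of 16). Both calls were absent without the filter on low counts (edgeR adjusted p = 0.0779 for Fadd and 0.0628 for Tnf).

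Genes that induce or answer interferon gamma were taken from a list of 17, of which 14 were tested. After photons Cxcl10 and Cxcl11, chemokines that draw T and NK cells and respond to type I as well as type II interferon, rose by 2.005 and 1.46 (edgeR adjusted p = 0.0135 and 0.0358). Ciita, the regulator of MHC class II genes, fell by -0.73 (edgeR adjusted p = 0.0129), so that 3 of the 14 were called, against 3.81% of all genes. In the carbon-ion arm Ciita ranged from 18.2 to 25.9 CPM in controls and from 9.08 to 16.8 CPM after irradiation, without overlap, an estimate of -0.54 that did not pass (unadjusted p = 0.00202, edgeR adjusted p = 0.425). The carbon-ion minus photon effect on Ciita was 0.19 (edgeR adjusted p = 0.732). Cxcl10 went from 1.38 ± 0.474 to 5.53 ± 5.13 CPM after photons and from 2.02 ± 0.640 to 7.26 ± 4.99 CPM after carbon ions (SD, n = 8 each). The carbon-ion estimate was 1.84 and did not pass (edgeR adjusted p = 0.314), and the difference of the effects was -0.16 (edgeR adjusted p = 0.919). The call on Cxcl11 held in 7 of 16 fits without 1 tumour and was absent without the filter on low counts (edgeR adjusted p = 0.0647) and among M-titled libraries (0.0525). Its photon controls were low, at 0.159 ± 0.0750 against 0.390 ± 0.156 CPM in the carbon-ion controls (SD, n = 8 each), a difference of 1.31 (edgeR adjusted p = 0.0363) that was also absent under these settings (0.0681 and 0.0840) and held in 9 of 16 fits without 1 tumour. Ifngr1, a subunit of the interferon gamma receptor, was higher in the carbon-ion than in the photon controls by 0.47 (edgeR adjusted p = 0.00646). Between the irradiated groups Ifngr1 and Ifngr2, the other subunit, were higher after carbon ions by 0.39 and 0.41 (edgeR adjusted p = 0.0354 and 0.0338), calls that held in 10 and 9 of 16 fits without 1 tumour. Both of these calls were absent without the filter on low counts (edgeR adjusted p = 0.0731 and 0.0697). That on Ifngr1 was also absent among M-titled libraries (0.0538). Ifng itself had the few counts given above.

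Of the chemokines made by NK and T cells, Ccl5 went from 1.26 ± 0.569 to 2.21 ± 0.875 CPM in the carbon-ion arm (SD, n = 8 each), an estimate of 0.81 (edgeR adjusted p = 0.621), and an estimate of 0.21 after photons. Ccl3 and Ccl4 had estimates of 0.65 and 0.62 after carbon ions and of -0.24 and 0.02 after photons, and none of these passed the threshold.

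Estimates for macrophage, neutrophil, muscle and mast cell markers lay mostly below 0 after photons, and some were called. The summed level of 8 macrophage and monocyte markers had a median of 651.9 CPM in the photon controls (range 433.8 to 885.6) and 427.9 CPM in the photon tumours (316.8 to 561.9), and that of 7 neutrophil markers 132.7 CPM (97.2 to 275.6) and 92.5 CPM (52.9 to 153.9). The sum of 6 skeletal muscle markers had medians of 1413 CPM (23.6 to 4699) and 45.7 CPM (12.1 to 995.5). The 7 mast cell and basophil markers had medians of 66.5 CPM (49.4 to 139.3) and 46.6 CPM (34.4 to 77.8). Among these lists 2 of 8 macrophage and 3 of 6 tested neutrophil markers fell by the test, and 0 of 6 muscle and 0 of 7 mast cell markers did, where 3.81% of all genes were called. An unadjusted p under 0.05 was found for 6 of the muscle and 6 of the mast cell markers, against 21.5% of all genes. The macrophage markers that fell were Csf1r, by -0.54, and Mrc1, by -0.77 (edgeR adjusted p = 0.0260 and 0.0431). The neutrophil markers that fell were Csf3r, by -0.79, Cxcr2, by -0.93, and Retnlg, by -1.89 (edgeR adjusted p = 0.0210, 0.0129 and 0.0454). The calls on Csf1r, Mrc1, Csf3r and Retnlg held in 9, 5, 15 and 5 of 16 fits without 1 tumour. Those on Mrc1 and Retnlg were absent without the filter on low counts (edgeR adjusted p = 0.0591 and 0.0642). That on Mrc1 was also absent among M-titled libraries (0.0567). The muscle genes Mylpf, Tnnt3 and Ttn had photon estimates of -3.17, -2.88 and -2.77, and the mast cell and basophil genes Cpa3, Tpsb2 and Mcpt8 of -1.53, -1.08 and -0.54. Ptprc had an estimate of -0.54 in that comparison and was not called. No defining marker of these 4 lists was at 0 in all libraries of a group. Epithelial markers summed to medians of 3433 and 3388 CPM. The part of these differences in the photon results on Raet1e, Ulbp1, Ctsc, Cd3d and the cytotoxic genes was not tested. In the carbon-ion arm the macrophage sums had medians of 592.2 and 605.6 CPM and the muscle sums of 594.3 and 577.0 CPM. The markers called between the irradiated groups were C1qa, C1qb and Csf1r of macrophages, with log2 differences of 0.58, 0.63 and 0.54, and Retnlg, S100a8 and S100a9 of neutrophils, with 2.24, 1.35 and 1.31. Each of these calls held in 10 to 15 of 16 fits without 1 tumour. Without the filter on low counts those on C1qa, Csf1r and S100a8 were absent (edgeR adjusted p = 0.0554, 0.0512 and 0.0535). Among M-titled libraries those on C1qa, Retnlg, S100a8 and S100a9 were absent (0.0545, 0.0588, 0.0658 and 0.0595). Cdh1 was the 1 epithelial marker called, and was higher in the carbon-ion than in the photon controls by 0.41 (edgeR adjusted p = 0.0404, held in 3 of 16 fits without 1 tumour). Its call was absent without the filter on low counts and among M-titled libraries (edgeR adjusted p = 0.0750 and 0.232).

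Of the markers of gamma delta T cells, type 2 innate lymphoid cells and plasmacytoid dendritic cells edgeR called 0 in all 5 comparisons. The shares called among all genes were 0.0%, 3.81%, 0.0781%, 9.14% and 5.08%, with the comparisons ordered as for the 8 tested genes. Unadjusted p was under 0.05 after photons for 0 of 3, 0 of 3 and 1 of 4 markers, against 21.5% of all genes. In that comparison the gamma delta T cell genes Trdv4, Trdc and Sox13 had estimates of -0.77, -0.31 and -0.14, and the genes Il1rl1, Rora and Areg of type 2 innate lymphoid cells -0.080, 0.056 and 0.19. Of the plasmacytoid dendritic cell markers Ccr9 had 0.059 and Tcf4 0.032. Cox6a2 had -2.60, and it also encodes the muscle form of a cytochrome c oxidase subunit, so that its value stands beside those of the muscle genes given above. The smallest edgeR adjusted p among these 9 photon estimates was 0.113, for Cox6a2.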

How the data were processed

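RNA was extracted from tumour pieces and stranded mRNA libraries were prepared, per the labels' protocols. The authors deposited 1 table of estimated (expected) counts per gene symbol for the 32 libraries. The submitters' processing notes name FastQC 0.12.0, Trimmomatic 0.32, RSEM 1.3.3 and mm10, with no role or order; the annotation and the use of strand are not given in the sources used here. Of 853648 estimated counts above 0 in the deposited table, 4 were whole and 157 had no more than 2 decimals, the precision RSEM usually writes (both to within 1e-06), so they may have been rescaled, which is not stated. Each was rounded first; a library total moved by no more than 0.00403%. The planned test assumed counts and was kept.

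In R 4.3.3, edgeR 4.0.16 kept genes with filterByExpr (minimum count 10, by group), scaled libraries by TMM and fitted 1 quasi-likelihood model with a coefficient per group to all 32 libraries, giving 5 contrasts. P-values were adjusted over the 20474 genes tested. CPM is the count scaled by the TMM-adjusted library total, and log2 CPM has a prior count of 2. The script was tested on simulated data. Alternatives were DESeq2 1.42.0, other scalings, no filter on low counts, M-titled libraries alone, D-titled libraries alone (chosen after seeing the data) and leaving out each library. Groups follow the treatment label, and replicate numbers follow the order of deposition and pair nothing.

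The 10 genes and the 18 other lists (172 genes, 168 in the file, 135 tested) were chosen with earlier results of these data known. The lists are other granzymes and granule proteins, other NK receptors and adaptors, cytotoxic lymphocyte transcription factors, NK ligands, death ligands with receptors and granzyme targets, interferon gamma induction and response, NK and T cell chemokines, and markers of T cells, gamma delta T cells, type 2 innate lymphoid cells, plasmacytoid dendritic cells, mast cells and basophils, macrophages and monocytes, neutrophils, B and plasma cells, epithelium, skeletal muscle and leukocytes. Genes of these lists were named where they passed the threshold in any contrast, with up to 3 of the smallest p per list otherwise, and Cd3e, Cd8a, Cd4 and Trac always. Most similar genes were named for Gzmb and Ncr1 among genes with a mean log2 CPM of at least 0. Positions and exon lengths come from the GENCODE annotation of GRCm38, the assembly of mm10.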

Additional observations from a re-analysis of the deposited data

Results flagged for a closer look

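In each of the 40 combinations of a gene and a group, the highest and the lowest tumour were compared with the others by Dixon's test, and 10 stood apart. In 3 of these groups, all of Ifng, 1 tumour was above 0, which alone fixes the outcome, so they are given as values only. Of the other 37 groups 7 held such a tumour. A rate of about 1 in 20 flags holds for normally distributed values only, and CPM from low counts need not be so distributed. The 7 are therefore not read as an excess. Gzmb had such a tumour in 3 groups: carbon-ion control replicate 6 with 5.19 CPM (the next tumour had 1.69), carbon-ion irradiated replicate 8 with 4.46 CPM and photon control replicate 2 with 2.38 CPM. Prf1 stood at 3.42 CPM in carbon-ion irradiated replicate 5, where the next tumour had 1.49 CPM. Nkg7 stood at 1.13 CPM in carbon-ion control replicate 2, and at 0 in photon irradiated replicate 3. The latter was the smallest library, where a count of 0 allows up to 0.196 CPM. The next tumour had 0.206 CPM, so this flag rests on reading 0 as an exact value. Fasl stood at 0.459 CPM in photon irradiated replicate 2, from 20 counts. In 3 groups Ifng was at 0 in all tumours but 1, with 0.0251 CPM in carbon-ion control replicate 5 and 0.0153 CPM in carbon-ion irradiated replicate 7, each from 1 count, and 0.176 CPM in photon irradiated replicate 1, from 8 counts.

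The carbon-ion minus photon effect on Ctsc was 0.66 on the log2 scale (edgeR adjusted p = 0.0320). The call held in 15 of 32 fits that each left out 1 tumour (adjusted p up to 0.0763, without photon control replicate 8), and was absent among M-titled libraries (0.114) and without the filter on low counts (0.0829).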

How the results depend on the processing

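None of the 8 tested genes passed the threshold under any alternative run. Of 974 recomputed values of their 40 results, 918 kept their direction and 56 did not, 48 of them on leaving out 1 library; the lowest adjusted p was 0.108. Among M-titled libraries the carbon-ion estimates were -0.38 for Gzmb and -0.16 for Ncr1, and the estimates between controls 0.062 for Gzma, 0.0054 for Klrk1 and -0.011 for Eomes. Among D-titled libraries Prf1 had 0.82 after carbon ions. Between irradiated groups Gzmb had -0.050 with upper-quartile scaling and -0.0054 without the filter on low counts. The cause of these differences was not tested.

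On leaving out 1 library, 16 results changed sign. After carbon ions their ranges were -0.17 to 0.83 for Gzmb, -0.47 to 0.22 for Prf1, -0.15 to 0.043 for Klrb1c and -0.16 to 0.37 for Ncr1. After photons they were -0.15 to 0.61 for Gzma, -0.071 to 0.18 for Nkg7 and -0.29 to 0.17 for Eomes. For the difference of effects they were -0.58 to 0.41 for Gzmb and -0.019 to 0.66 for Nkg7. Between controls they were -0.40 to 0.42 for Gzmb, -0.057 to 0.63 for Nkg7, -0.30 to 0.014 for Klrk1, -0.031 to 0.16 for Klrb1c and -0.26 to 0.31 for Eomes. Between irradiated groups they were -0.35 to 0.14 for Gzmb and -0.085 to 0.30 for Klrk1.

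The number of genes called after carbon ions was 0, 17 with DESeq2, 2 among D-titled libraries and 0 to 5 on leaving out 1 library. After photons it was 781, 1524 with DESeq2, 431 without the filter, and from 239 (without photon control replicate 3) to 1656 (without photon control replicate 2). The difference of effects had 16, 262 with DESeq2, 94 with upper-quartile scaling, 4 without the filter, 1 among M-titled libraries, and from 5 (without carbon-ion irradiated replicate 6) to 108 (without photon control replicate 2). The controls had 1871, 973 among M-titled libraries and 1178 to 2180. The irradiated groups had 1041, 1947 with DESeq2, 319 without the filter, and from 108 (without photon irradiated replicate 3) to 2159 (without carbon-ion irradiated replicate 3). Of 8 correlated pairs, 2 passed among M-titled libraries and 3 without centring on the group mean. No paired analysis was possible because the labels carry no replicate numbers and the numbers used here follow the order of deposition. Counts under 10 per library limit Gzma, Nkg7, Ncr1, Fasl and Ifng.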
